A study of Homo sapiens with 6 samples.

Results

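The genes described here encode potassium channel subunits, except for the antisense gene KCNJ5-AS1, which matched by its symbol. They were taken as every protein-coding row whose symbol begins with KCN and one of the family letters A to H, J, K, M, N, Q, S, T, U or V followed by a digit, which found 85 of the 61496 features in the deposited table. Of these, 15 were KCNK genes, which encode the K2P (tandem pore-domain) channels and are described apart, and 70 belonged to the other families. The RNA came from the human glioma line U251, with 3 control libraries from cells without sevoflurane (Sev) and 3 from cells kept in Sev for 2 h. Neither group carried a genetic change or a second agent according to the labels. The labels list gas concentrations of 1.7%, of 3.4% and of 5.1% but tie none to a library, and 5.1% is the concentration that the study names for its transcriptome. The libraries held between 38624292 and 46318311 counts. The labels do not say whether the replicates came from separate cultures, and where the study speaks of independent experiments it does not name the sequencing, so the p-values may measure only the spread between these libraries, which may be technical. All libraries derive from 1 cell line. In bulk RNA, fewer expressing cells and less RNA per cell cannot be told apart.

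Potassium channels set the resting membrane potential and repolarize excitable cells. K2P channels carry leak current, inward rectifiers (Kir, KCNJ) hold the membrane near the potassium equilibrium potential and in astrocytes take up extracellular potassium, and voltage-gated (Kv) and calcium-activated channels open on depolarization or on a calcium rise. Volatile anesthetics open K2P channels of the TREK and TASK types and inhibit those of the THIK type, which is known at the level of the channel protein. Channel mRNA, which is what was counted here, is a separate quantity.

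Of the 85 genes, 56 passed the expression filter and were tested, 8 of them KCNK genes. Of the other 29, 9 had 0 counts in every library, and the highest count in any library was 17. Control and Sev libraries did not overlap for 27 of the 56 (48.2%), beside 56.5% of all tested features and 57.8% of protein-coding genes. At an adjusted p under 0.05 (edgeR quasi-likelihood test, Benjamini-Hochberg over 27514 features), 13 genes were upregulated and 9 were downregulated by Sev, which is 39.3% of the 56, beside 43.7% of all tested features and 45.9% of protein-coding genes. By direction, 22.1% of all features and 25.0% of protein-coding genes rose, and 21.5% and 21.0% fell. The study's own threshold, which asks for more than 1 on the log2 scale in either direction and an unadjusted p under 0.05, was passed by 14 that rose and 6 that fell. That is 35.7% of the 56, where 23.5% of all features passed (11.4% higher and 12.0% lower), as did 16.7% of protein-coding genes (9.07% higher and 7.62% lower). The median log2 fold change was 0.03 for the 56 genes, −0.01 for all features and 0.04 for protein-coding genes. The 13 upregulated genes had a median control level of 0.182 FPKM, and 11 of them were under 1 FPKM in control cells. The 9 downregulated genes had a median control level of 0.423 FPKM. Of the 22, 7 reached the filter's level in all libraries of 1 group only, among them KCNK9, KCNJ5, KCNJ1 and KCNF1 (Sev only) and KCNH7 and KCNN2 (control only). Such a gene was tested because of the group in which it is high, so its call is a description.

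**Figure D1:**
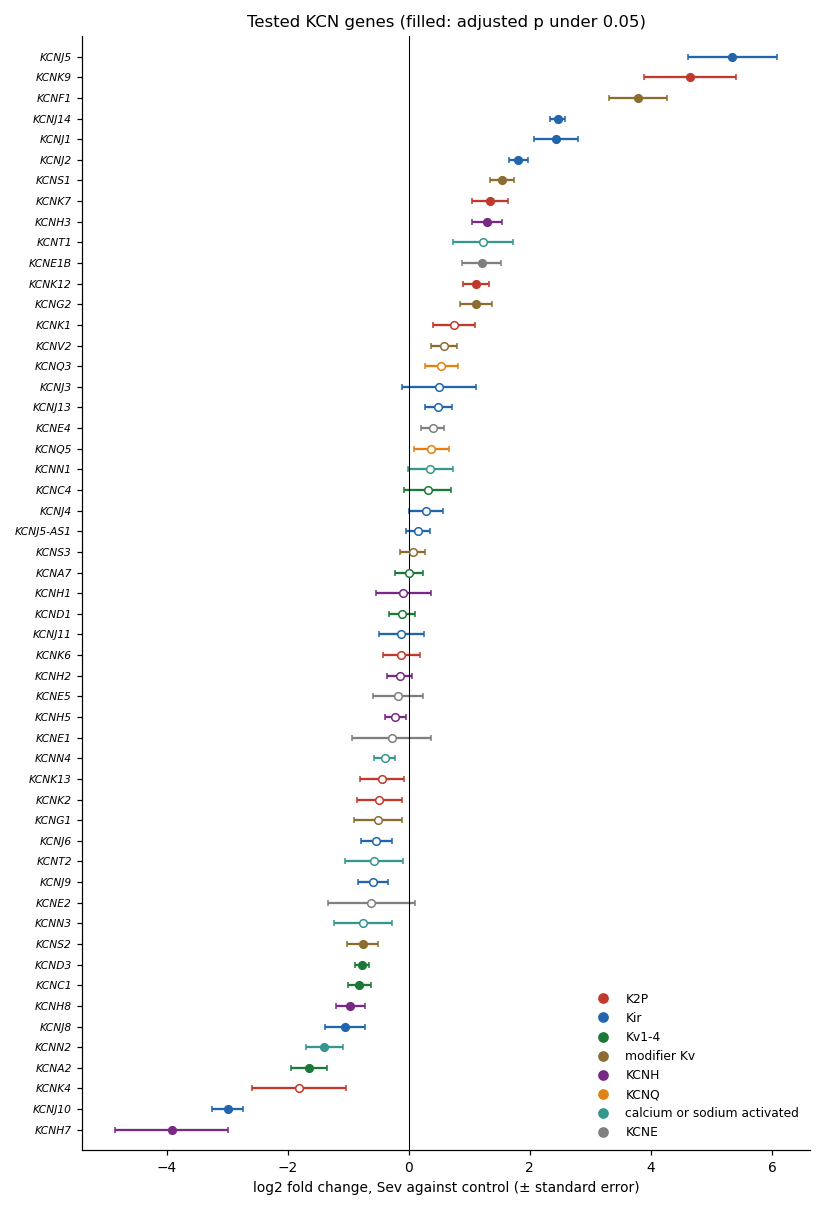
Log2 fold change of Sev against control for 53 of the 56 tested KCN genes, with its standard error (horizontal bars), colored by channel class and filled where the adjusted p was under 0.05 (edgeR quasi-likelihood test). KCNJ5 at 5.34 and KCNK9 at 4.65 lie at the upper end, and KCNH7 at −3.91 and KCNJ10 at −2.99 at the lower end.

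Promoter sequence was matched from RefSeq (GRCh38.p14) for 62 of the 85 genes, and the 250 bases before the annotated start were searched on both strands for 5 motifs. The windows of KCNF1 and KCNJ5, whose mRNA rose strongly, of KCNC1, which fell, and of KCNK4, the K2P gene with the largest negative fold change, are shown because they contain at most 7 bases of any annotated GENCODE 29 exon. They are written 5′ to 3′ on the strand of the gene, at chr2:10911684-10911933 (plus strand), chr11:128891106-128891355 (plus), chr11:17734531-17734780 (plus) and chr11:64291052-64291301 (plus). Capitals mark a match to a searched motif.
KCNF1: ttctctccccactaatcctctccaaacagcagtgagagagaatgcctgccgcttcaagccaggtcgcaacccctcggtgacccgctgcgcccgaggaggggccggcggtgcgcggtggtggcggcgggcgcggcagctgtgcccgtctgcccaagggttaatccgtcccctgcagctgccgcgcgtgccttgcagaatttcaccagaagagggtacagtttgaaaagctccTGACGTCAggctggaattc
KCNJ5: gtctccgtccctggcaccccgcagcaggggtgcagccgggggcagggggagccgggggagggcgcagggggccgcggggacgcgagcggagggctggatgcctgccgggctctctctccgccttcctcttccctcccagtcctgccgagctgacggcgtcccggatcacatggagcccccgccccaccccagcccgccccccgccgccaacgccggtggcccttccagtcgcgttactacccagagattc
KCNC1: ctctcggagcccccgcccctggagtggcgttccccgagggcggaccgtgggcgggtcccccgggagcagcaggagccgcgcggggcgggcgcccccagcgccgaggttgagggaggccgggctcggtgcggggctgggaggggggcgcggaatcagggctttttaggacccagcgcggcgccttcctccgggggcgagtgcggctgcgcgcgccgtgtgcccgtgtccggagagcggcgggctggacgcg
KCNK4: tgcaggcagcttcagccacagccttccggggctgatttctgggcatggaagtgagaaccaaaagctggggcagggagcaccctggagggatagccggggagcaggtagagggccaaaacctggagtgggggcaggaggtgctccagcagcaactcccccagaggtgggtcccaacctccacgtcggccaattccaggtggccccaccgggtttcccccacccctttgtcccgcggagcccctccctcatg
The only match in these 4 windows was the cyclic AMP response element TGACGTCA near the start of KCNF1, a palindrome that 1.77% of the 27305 promoters of this length hold. It occurred in 1 of the 62 KCN promoters. The TATA motif TATAAA was found in 6 of 62 (KCNJ1, KCNJ13, KCNJ14, KCNK1, KCNK16 and KCNT2), against 11.1% of all promoters. The AP-1 motif TGANTCA was in 4 of 62 and in 6.60% of all promoters, the E-box CACGTG in 3 and 6.49%, and the amino acid response motif TGATGCAA in 2 (KCNA10 and KCNT2) and 0.820%. The windows held 20 CpG dinucleotides for KCNF1, 24 for KCNJ5, 36 for KCNC1 and 7 for KCNK4, where the median promoter held 11. These matches describe letters only.

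Among the K2P genes, KCNK9, KCNK12 and KCNK7 were upregulated after Sev and none was downregulated at an adjusted p under 0.05, which is 37.5% of the 8 tested, under the 43.7% of all features. By the study's threshold, the same test gave 3 higher and 1 lower, KCNK4, which is 50.0% beside 23.5% of all features. These counts include KCNK9, tested because of the Sev libraries, and KCNK4, tested because of the control libraries. DESeq2 at an adjusted p under 0.05 also gave 3 higher and 0 lower, and its share over all features is not given here. All 8 tested genes were weakly expressed, and their summed level was 1.59 ± 0.44 FPKM in control and 2.17 ± 0.19 FPKM in Sev libraries (SD, n = 3). Sums ran from 1.29 to 2.09 in control and from 1.98 to 2.36 in Sev libraries, so the groups overlapped. The median log2 fold change of the 8 was 0.31, and over the same 8 genes it lay between 0.16 (without the second Sev library) and 0.51 (without the third control library) with 1 library left out.

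KCNK9 (ENSG00000169427, chromosome 8, minus strand) encodes a TASK channel, an acid-sensitive leak channel that volatile anesthetics open. It had 4, 0 and 0 counts in the control libraries and 33, 30 and 34 in the Sev libraries. The control libraries were at or close to 0 and all Sev libraries lay well above them, and the gene passed the filter only through the Sev libraries. The pooled ratio was 27.5, with an exact 95% interval of 10.4 to 103 that covers counting error only, and the fitted log2 fold change was 4.65 ± 0.76 (SE, adjusted p = 0.00226, edgeR). Its level after Sev was still only 0.0891 FPKM. TRAPPC9, the nearest annotated gene upstream on the same strand, had a log2 fold change of −0.56.

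KCNK12 (ENSG00000184261, chr2:47516581-47570939, minus strand) encodes a THIK channel, and KCNK13 encodes its relative. KCNK12 gave 0.827, 0.934 and 0.906 CPM (library-scaled counts after TMM normalization) in control and 1.86, 1.65 and 2.27 CPM in Sev libraries. Every Sev library was above every control library. The log2 fold change was 1.11 ± 0.22 (SE, adjusted p = 0.0050). KCNK13, which is inhibited by halothane, was at 0.539 ± 0.193 CPM in control and 0.399 ± 0.0805 CPM in Sev libraries with overlapping groups (log2 fold change −0.44, adjusted p = 0.365). The difference between the fold changes of these relatives was not tested.

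KCNK7 (ENSG00000173338, chr11:65592855-65595996, minus strand) encodes a TWIK-related subunit that gives little or no current when expressed alone. It had 0.496, 0.328 and 0.639 CPM in control and 1.11, 1.28 and 1.34 CPM in Sev libraries. The groups were apart, with a log2 fold change of 1.33 ± 0.30 (SE, adjusted p = 0.00867). KCNK1, which encodes the TWIK channel itself and was the highest K2P gene at 0.556 FPKM in control cells, had 1.51, 2.20 and 3.44 CPM in control and 3.64, 5.56 and 2.88 CPM in Sev libraries. The third control library exceeded the third Sev library. Its log2 fold change was 0.75 ± 0.35 (adjusted p = 0.118), and without the third control library the adjusted p was 0.0461. KCNK6, another TWIK-related gene, was at 0.458 ± 0.0807 and 0.418 ± 0.0124 CPM (log2 fold change −0.12, adjusted p = 0.767).

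The TREK and TRAAK channels respond to stretch, heat and lipids, and TREK but not TRAAK channels are opened by volatile anesthetics. KCNK2, a TREK channel, had 1.39, 1.03 and 2.00 CPM in control and 0.982, 0.639 and 1.54 CPM in Sev libraries. These groups overlapped (log2 fold change −0.49 ± 0.37, adjusted p = 0.323). KCNK4 (TRAAK) had 14, 11 and 12 counts in control and 2, 7 and 0 in Sev libraries, without overlap. Its log2 fold change of −1.81 ± 0.77 passed the study's threshold but not the adjusted one (edgeR adjusted p = 0.0915). Without the second Sev library the adjusted p was 0.0250, and in each of the other fits with 1 library left out the gene did not pass the study's threshold. The remaining TREK gene, KCNK10, had at most 10 counts. KCNK3, the other anesthetic-sensitive TASK gene, stayed under the filter with 6, 6 and 10 against 8, 13 and 17 counts. KCNK15 had at most 7 and KCNK18 at most 3 counts, and KCNK5, KCNK16 and KCNK17 had 0 counts in every library, which allows up to 3 counts in each.

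**Figure D2:**
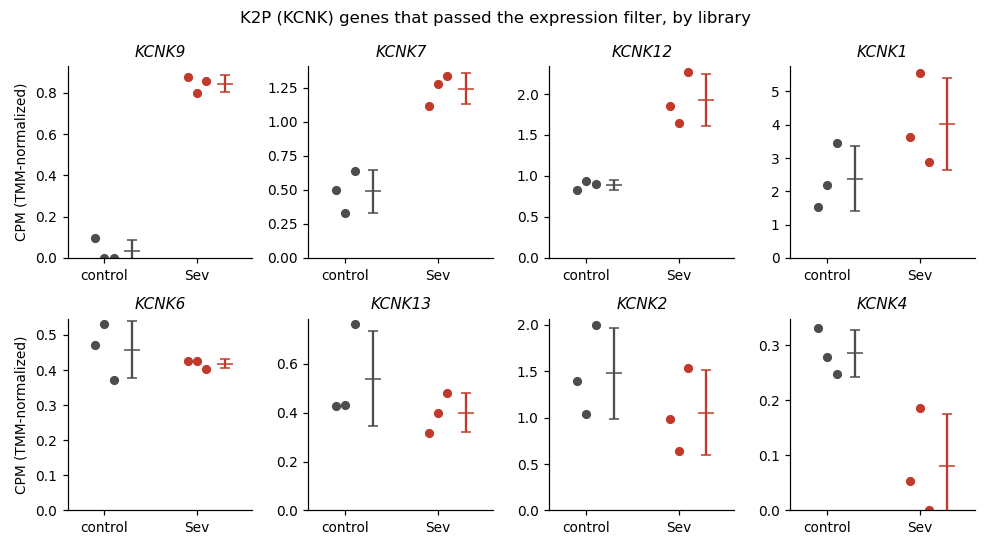
TMM-normalized CPM of the 8 tested K2P genes in each control and Sev library (points), with the mean and SD of 3 libraries beside them; each panel has its own linear axis from 0. KCNK9, KCNK7 and KCNK12 show no overlap between groups, KCNK4 lies lower in Sev libraries, and the groups overlap for KCNK1, KCNK2, KCNK6 and KCNK13.

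The Kir genes held both large rises and a large fall. Of 17 listed and 13 tested, KCNJ14, KCNJ2, KCNJ5 and KCNJ1 rose and KCNJ10 and KCNJ8 fell at an adjusted p under 0.05, a share of 46.2% beside 43.7% of all features, or 6 of 12 without KCNJ5-AS1. This share counts KCNJ5 and KCNJ1, which were tested because of the Sev libraries and whose calls are descriptions. KCNJ14 (ENSG00000182324, chr19:48455509-48466980, plus strand) encodes a strong inward rectifier. It rose from 6.81, 6.54 and 7.58 CPM to 40.4, 33.4 and 41.4 CPM. No library of one group came near the other, and the log2 fold change was 2.46 ± 0.13 (SE, adjusted p = 3.99e-05), the smallest p of the 85 genes. KCNJ14 shares part of its span on the same strand with GRWD1, which rose by 1.25 on the log2 scale. How the counting assigned shared reads is not given in the sources used here, so the size of this rise is uncertain.

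KCNJ2 (ENSG00000123700, chr17:70168673-70180048, plus strand) encodes the classical strong inward rectifier of heart, muscle and brain. Its control libraries had 14.5, 17.1 and 16.5 CPM and its Sev libraries 65.4, 43.7 and 59.7 CPM. The lowest Sev library was above every control library, with a log2 fold change of 1.81 ± 0.16 (adjusted p = 0.000201). KCNJ2-AS1, the antisense transcript of this locus, also rose (log2 fold change 1.18, adjusted p = 0.00511). Whether the counting kept reads of the opposite strands apart is not given in the sources used here.

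KCNJ5 and KCNJ1 lie 23982 bp apart on chromosome 11 and point away from each other. KCNJ5 (ENSG00000120457, chr11:128891356-128921035, plus strand) encodes a G protein-gated rectifier subunit, and had 6, 0 and 0 counts in control against 68, 66 and 96 in Sev libraries. The pooled ratio was 43.5 (exact 95% interval of counting error 19.7 to 120, adjusted p of the edgeR fit = 0.00115). KCNJ1, the renal outer medullary channel, had 0.307, 0.126 and 0.309 CPM in control and 1.51, 1.06 and 1.51 CPM in Sev libraries, a log2 fold change of 2.43 ± 0.37 (adjusted p = 0.00168). Both genes had few counts in control cells and more in every Sev library, and both passed the filter only through the Sev libraries. KCNJ5-AS1, antisense to KCNJ5 and typed as protein-coding in GENCODE 29, matched the symbol rule but encodes no channel subunit; its log2 fold change was 0.15 (adjusted p = 0.575). KCNJ3, KCNJ6 and KCNJ9, the other G protein-gated subunits, did not pass, with log2 fold changes of 0.50, −0.53 and −0.60.

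KCNJ10 (ENSG00000177807, chr1:159998651-160070483, minus strand) encodes the glial rectifier through which astrocytes take up potassium. It fell from 14.7, 13.7 and 12.6 CPM to 2.18, 1.94 and 1.03 CPM. Each Sev library was far under each control library, with a log2 fold change of −2.99 ± 0.26 (adjusted p = 0.000198). On level per length it dropped from 1.85 ± 0.168 to 0.207 ± 0.0706 FPKM. PIGM, which overlaps it on the same strand, also fell (log2 fold change −1.30), and how shared reads were counted is not given in the sources used here. KCNJ8, the pore subunit of vascular ATP-sensitive channels, fell from 1.32, 1.77 and 1.48 CPM to 0.956, 0.852 and 0.404 CPM (log2 fold change −1.05 ± 0.33, adjusted p = 0.0354). This call was lost in 5 of the 6 fits with 1 library left out, where the adjusted p reached 0.0995. KCNJ11, the other ATP-sensitive pore subunit, had a log2 fold change of −0.12 (adjusted p = 0.815).

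**Figure D3:**
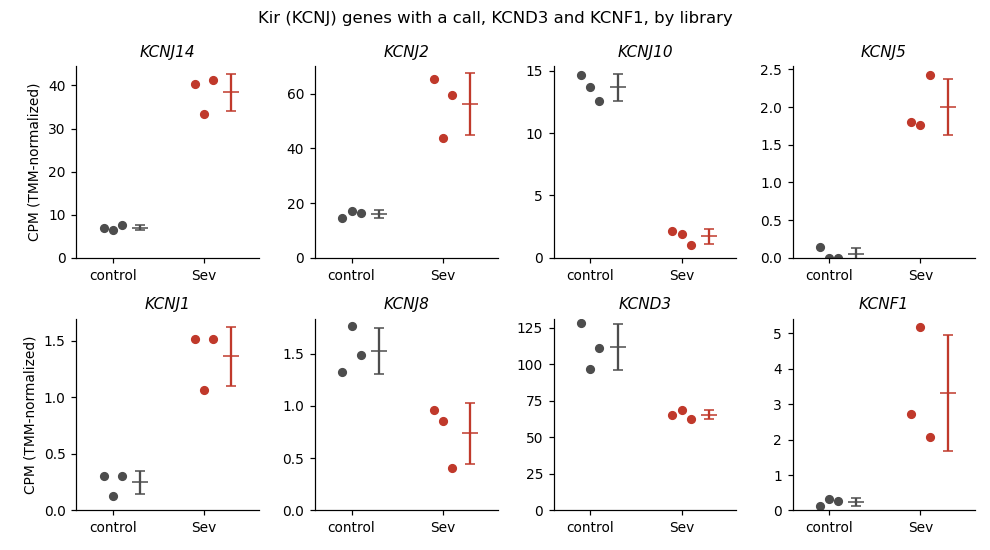
TMM-normalized CPM of the 6 Kir genes with an adjusted p under 0.05 and of KCND3 and KCNF1 in each library (points), with the mean and SD of 3 libraries; axes are linear from 0 and differ between panels. KCNJ14, KCNJ2, KCNJ5, KCNJ1 and KCNF1 are higher and KCNJ10, KCNJ8 and KCND3 lower in Sev libraries, without overlap.

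Of the pore-forming Kv genes of the KCNA to KCND families, 8 of 17 were tested, and 3 fell and none rose at an adjusted p under 0.05 (edgeR), which is 37.5% beside 43.7% of all features. By the study's threshold 1 fell and 0 rose, which is 12.5% beside 23.5% of all features. At an unadjusted p under 0.05 and by DESeq2 the count was also 3 and 0, for which no share over all features is given here. KCND3 (ENSG00000171385, chr1:111770662-111989155, minus strand) encodes a subunit of the fast transient A-type current. Among the 85 genes, KCND3 was the most abundant in control cells at 12.1 ± 1.95 FPKM. Its counts fell from 128, 96.5 and 111 CPM to 65.1, 68.5 and 62.8 CPM. The Sev libraries lay close together under all control libraries, with a log2 fold change of −0.77 ± 0.11 (adjusted p = 0.00137). KCND3-AS1 on the opposite strand fell as well (log2 fold change −1.38, adjusted p = 0.00449), with the same limit on the strand of the counting as at KCNJ2. KCNA2, a delayed rectifier of axons, fell from 2.79, 1.56 and 2.14 to 0.849, 0.719 and 0.505 CPM (log2 fold change −1.65 ± 0.30, adjusted p = 0.00388). KCNC1, a fast Kv channel of rapidly firing neurons, fell from 5.37, 5.45 and 5.83 to 2.87, 2.66 and 3.91 CPM (log2 fold change −0.82 ± 0.19, adjusted p = 0.00957). KCNC4, KCND1 and KCNA7 did not pass, with log2 fold changes between −0.11 and 0.31. Of the 9 untested genes, 4 had 0 counts throughout.

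The modifier Kv genes encode subunits that conduct only when assembled with other Kv subunits, chiefly those of the KCNB family. Of 7 tested, KCNF1, KCNS1 and KCNG2 rose and KCNS2 fell at an adjusted p under 0.05 (57.1%, beside 43.7% of all features). This share counts KCNF1, which was tested because of the Sev libraries and whose call is a description. KCNF1 (ENSG00000162975, chr2:10911937-10914225, plus strand), whose upstream window is printed above, had 0.118, 0.328 and 0.268 CPM in control and 2.71, 5.16 and 2.07 CPM in Sev libraries. All Sev libraries were well above control, although they differed among themselves more than the controls did, and the log2 fold change was 3.78 ± 0.47 (adjusted p = 0.000751). It moved from rank 45 to rank 8 of the 85 genes by mean FPKM. KCNS1 rose from 1.47, 2.09 and 1.85 to 5.34, 4.55 and 5.83 CPM (log2 fold change 1.54 ± 0.20, adjusted p = 0.000849). KCNG2 rose from 0.544, 0.480 and 0.433 to 0.982, 0.932 and 1.24 CPM (log2 fold change 1.11 ± 0.26, adjusted p = 0.0111). KCNS2 had 2.51, 3.13 and 3.28 CPM in control and 1.51, 1.38 and 2.35 CPM in Sev libraries. Its fall (log2 fold change −0.76, adjusted p = 0.0392) did not pass in 4 of the 6 fits with 1 library left out, with an adjusted p up to 0.122. KCNV2 had a log2 fold change of 0.58 (adjusted p = 0.0545).

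Of 6 tested genes of the KCNH family, the ether-a-go-go related channels, 1 rose and 2 fell at an adjusted p under 0.05. That is 50.0%, beside 43.7% of all features. The log2 fold change was positive for 1 and negative for 5 of the 6. KCNH3 rose from 1.35, 1.09 and 0.824 to 2.52, 3.14 and 2.27 CPM (log2 fold change 1.29 ± 0.25, adjusted p = 0.00474). KCNH8 fell from 3.92, 2.22 and 2.99 to 1.65, 1.52 and 1.51 CPM (log2 fold change −0.96 ± 0.24, adjusted p = 0.0138). KCNH7 had 11, 29 and 16 counts in control and 0, 3 and 0 in Sev libraries. With so few counts after Sev, the pooled control-to-Sev ratio of 16.4 had an exact 95% interval of 5.34 to 82.1 (edgeR adjusted p = 0.0114). KCNH7 reached the filter's level only in control libraries, so its call is a description. GCA, which overlaps KCNH7 on the opposite strand, had a log2 fold change of −1.05 (adjusted p = 0.000978, edgeR). The strand setting of the counting is not given in the sources used here. KCNH2, the cardiac repolarizing channel, and KCNH1, often found in tumors, had log2 fold changes of −0.15 and −0.09 (adjusted p = 0.591 and 0.886). KCNQ3 and KCNQ5, which encode M-current channels, did not pass, at 0.54 and 0.37 on the log2 scale.

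Among channels gated by intracellular calcium or sodium, KCNN4 is the intermediate-conductance channel and a known channel of glioma cells. It was second of the 85 genes in control cells at 8.98 ± 0.917 FPKM. It had 38.3, 32.5 and 37.0 CPM in control and 26.4, 34.5 and 20.9 CPM in Sev libraries. The second Sev library lay within the control range (log2 fold change −0.40 ± 0.18, adjusted p = 0.103), and without it the adjusted p was 0.0139. With all libraries, it also passed with library size only and with limma on filtered log2(FPKM + 1), where the lower of the adjusted p-values was 0.0273. KCNN2, a small-conductance channel, fell from 0.946, 0.833 and 0.783 to 0.239, 0.399 and 0.328 CPM without overlap (log2 fold change −1.40 ± 0.30, adjusted p = 0.00787). It reached the filter's level only in control libraries, so this call is a description. KCNT1, a sodium-activated channel, passed the study's threshold at a log2 fold change of 1.22, but its second Sev library at 1.78 CPM stood above the others at 0.743 and 0.505 CPM (adjusted p = 0.0812).

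KCNE genes encode single-span subunits that modulate Kv channels. KCNE4, the most abundant of them, was at 10.4, 8.33 and 9.50 CPM in control and 10.6, 16.0 and 10.5 CPM in Sev libraries (log2 fold change 0.39 ± 0.19, adjusted p = 0.135). KCNE1B was the family's single call, with a log2 fold change of 1.20 ± 0.32 (adjusted p = 0.0179). It is a near-identical copy of KCNE1, so reads may have been split between them. KCNE1 had 5.22, 0.959 and 0.906 CPM in control and 1.94, 2.45 and 1.44 CPM in Sev libraries. Their summed level was 6.38, 1.62 and 1.46 CPM in control and 4.09, 3.94 and 3.26 CPM in Sev libraries, and the first control library exceeded every Sev library. The KCNE1B call is therefore uncertain, and it was lost in 3 of the 6 fits with 1 library left out, with an adjusted p up to 0.0632.

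On the length-normalized scale the summed level of the 85 genes was 44.0 ± 4.4 FPKM in control and 47.0 ± 0.66 FPKM in Sev cells, while its make-up shifted. Kir genes made up 18.5% ± 1.2 of the sum in control and 36.8% ± 5.4 in Sev cells (SD, n = 3), with no overlap between libraries, and 17.7% and 36.3% without KCNJ5-AS1. KCNJ2 and KCNJ14, the latter of uncertain size, made up 14.6 of the 17.3 FPKM of Kir genes in Sev cells. Kv genes of the KCNA to KCND families went from 32.6% ± 1.6 to 18.1% ± 0.57. Most of this class was KCND3, at 12.1 of 14.4 FPKM in control and 6.40 of 8.49 FPKM in Sev cells. Calcium- or sodium-activated genes went from 21.4% ± 0.25 to 13.8% ± 3.1. Nearly all of the latter was KCNN4, at 8.98 of 9.41 FPKM in control and 6.13 of 6.47 FPKM in Sev cells, which did not pass the edgeR test. K2P genes made up 3.74% ± 0.93 and 4.77% ± 0.53, with overlapping libraries. The 4 most abundant of the 85 genes in control cells by FPKM were KCND3, KCNN4, KCNJ2 and KCNE4, and in Sev cells KCNJ2, KCNJ14, KCND3 and KCNN4. KCNJ2 was at 7.78 ± 1.72 and KCNJ14 at 6.82 ± 0.975 FPKM after Sev, within the spread of each other and of KCND3 at 6.40 ± 0.0679 and KCNN4 at 6.13 ± 1.33. With 3 libraries against 3, an exact permutation test of a share cannot go under 0.10, and none was run.

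**Figure D4:**
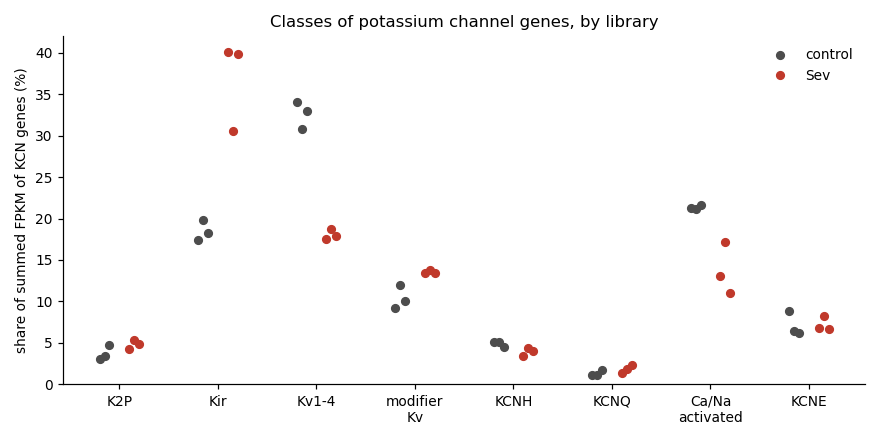
Share (%) of the summed FPKM of all 85 KCN genes that each channel class takes, with 1 point per library (control gray, Sev red). Kir genes take 30.6% to 40.1% in Sev libraries against 17.4% to 19.8% in control, and KCNA to KCND genes (Kv1-4) 17.6% to 18.7% against 30.9% to 34.0%.

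Subunits that assemble with these channels were followed in a separate list of 21 genes that includes the large-conductance calcium-activated channel and its partners. Of 12 tested, 2 rose and 2 fell (33.3%, beside the 43.7% of all features). KCNMA1, the pore of the large-conductance channel, rose from 24.0, 32.0 and 30.1 to 47.4, 35.3 and 50.2 CPM (log2 fold change 0.63 ± 0.16, adjusted p = 0.0159), and its partner KCNMB3 fell (log2 fold change −0.70, adjusted p = 0.0408). KCNIP1, a calcium-binding partner of KCND channels, rose (log2 fold change 0.53, adjusted p = 0.0456) where KCND3 itself fell. KCNRG, a soluble suppressor of Kv assembly, fell from 7.73, 3.33 and 6.88 to 1.75, 2.34 and 0.278 CPM (log2 fold change −2.04, adjusted p = 0.0300), but it lies over TRIM13 on the same strand, which fell by 1.19. Each of these 4 calls was lost in at least 3 of the 6 fits with 1 library left out.

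Potassium pumps, cotransporters and other potassium-permeable channels formed a list of 32 genes. Of 23 tested, 5 rose and 5 fell (43.5%, beside the 43.7% of all features). ATP1B1, the beta subunit of the sodium-potassium pump, rose from 70.8, 70.8 and 72.6 to 149, 219 and 118 CPM (log2 fold change 1.18 ± 0.20, adjusted p = 0.00268). The catalytic pump subunit gene ATP1A4 had 3, 14 and 3 counts in control and 64, 69 and 136 in Sev libraries (log2 fold change 3.87), and like SLC12A3 it reached the filter's level only in Sev libraries, so both calls are descriptions. The cotransporter genes SLC12A5 and SLC12A3 rose by 1.14 and 2.90, while SLC12A4 fell by 0.28. The lysosomal channel gene TMEM175 fell by 0.68 (adjusted p = 0.00122), the pacemaker channel gene HCN3, which overlaps CLK2, fell by 0.57, and the pump regulator FXYD7 fell by 1.04. The calls of SLC12A3, SLC12A4 and FXYD7 were each lost in 3 or more of the 6 fits with 1 library left out.

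As a check of the cell type, 9 of 10 glioma markers were tested, of which 3 rose and 2 fell at an adjusted p under 0.05 (edgeR). The list summed to 8975 to 9839 CPM in control and 10318 to 11187 CPM in Sev libraries. A few abundant genes can carry such a sum, so it does not establish identity. None of 4 epithelial markers passed the filter. Neuronal markers summed to 35.0 to 39.7 and 34.8 to 37.1 CPM, oligodendrocyte markers to 8.32 to 10.5 and 8.62 to 9.79 CPM, endothelial markers to 8.13 to 10.3 and 9.21 to 12.7 CPM, and myeloid markers to 6.18 to 8.46 and 12.1 to 14.2 CPM, with AIF1 and STMN2 at no more than 3 counts. At an adjusted p under 0.05, 2 of 6 tested neuronal, 1 of 4 oligodendrocyte, 2 of 4 endothelial and 2 of 3 myeloid markers rose, beside 22.1% of all features. Falls were called for 1 neuronal and 2 oligodendrocyte markers. The part of the myeloid marker genes' rise in the values above was not tested.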

How the data were processed

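RNA depleted of ribosomal RNA was sequenced from 3 control and 3 Sev libraries. The authors deposited counts per gene, without normalization, and FPKM values per gene. Per the submitters' processing notes the tools were bcl2fastq 2.19 and featureCounts and the build hg18; the aligner, the strand setting of the counting and the making of the FPKM values are not given in the sources used here. Symbols and GENCODE 29 (GRCh38) positions were joined by Ensembl identifier; the symbol KCNE1B came from GENCODE.

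Counts were filtered with filterByExpr, scaled by TMM and tested with the quasi-likelihood F test of edgeR 4.0.16 in R 4.3.3, with no covariate and Benjamini-Hochberg adjustment over 27514 features. SE was taken as |log2 fold change| over the root of F. CPM values hold no prior count. Replicates of a group differed beyond counting noise. The fit was tested on simulated data.

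The members, lists and tests were chosen with earlier results of these data known. Named were all tested KCNK genes, other genes with an adjusted p under 0.05, the 5 other members highest in FPKM and genes overlapping these; further members were named after their values were seen to complete each family. No symbol fits KCNM plus a digit, so KCNMA1, KCNMB1 to KCNMB4 and the KCNAB genes stand in the accessory list. The results for some of these genes are not reported here. Intervals cover counting error only. Alternatives were DESeq2 1.42.0 size factors and its Wald test, library size only, no filter, a minimum of 10 counts per library, a replicate block, leaving out each library, and limma 3.58.1 on log2(FPKM + 1) with and without a filter, or log2(FPKM + 0.1), the filter being 0.5 FPKM in 3 libraries. Motifs were searched in Python 3.11.15.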

Additional observations from a re-analysis of the deposited data

How the results depend on the processing

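Of the 22 KCN genes with an adjusted p under 0.05, 19 kept it in all 6 fits with 1 library left out; KCNE1B, KCNJ8 and KCNS2 did not. No gene named under the rule changed direction in the 15 alternatives in which it was tested. Library size scaling alone moved the median log2 fold change of all features from −0.01 to −0.15, that of the KCNK genes from 0.31 to 0.17 and that of the other KCN genes from 0.03 to −0.11. In several other settings the genes tested also changed. Without an expression filter the medians were 0.80 over 12 KCNK genes and 0.29, and 0.30 and 0.02 over the genes tested with the filter; the KCNK median was 0.78 over 2 genes for log2(FPKM + 0.1) and 0.013 over 12 for log2(FPKM + 1) without a filter, or 0.052 over the same 8. With 1 library left out, the KCNK median ran from 0.16 to 1.11 over the 8 or 9 genes then tested (KCNK3 being the ninth) and from 0.16 (without Sev replicate 2) to 0.51 (without control replicate 3) over the same 8, and that of the other KCN genes first tested from −0.03 to 0.08.

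By the study's threshold, 50.0% of the 8 tested KCNK genes passed, beside 23.5% of all features, and 3 of them rose. With library size only and without Sev replicate 3 this was 2, as KCNK12 went under the fold limit, with at least 10 counts in every library it was 2, as KCNK9 was not tested, and with 1 library left out it was 2 to 4; it was 0 with each limma fit on FPKM, of which the filtered ones tested KCNK1 and KCNK7 only. The 1 that fell, KCNK4, became 0 with DESeq2's Wald test, without a filter, with at least 10 counts in every library, with the limma fits and with the replicate block, and 0 to 1 with 1 library left out. By adjusted p, 1 KCNK gene rose in both filtered limma fits, and 0 to 1 fell with 1 library left out. Other KCN genes past the threshold numbered 11 higher and 5 lower, 33.3% of 48 tested, beside 23.5% of all features. They numbered 7 and 3 with at least 10 counts in every library, which tested 40 of the 48. They numbered 4 and 1 for log2(FPKM + 0.1), and 2 and 1 for both fits of log2(FPKM + 1). The filtered limma fits tested 13 of the 48. By adjusted p, 10 other KCN genes rose and 9 fell (39.6%, beside 43.7% of all features). With at least 10 counts in every library 6 rose. In both filtered limma fits 4 rose, and 2 or 3 fell (0.1 and 1 added). Shares over all features in these alternatives are not given here.

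For accessory genes, of 2 higher and 2 lower, 1 was higher with library size only, with no filter and with the block, and 0 in the limma fits; 1 was lower for filtered log2(FPKM + 1) and with no filter, 0 with the block. With 1 library left out, 0 to 3 were higher and 0 to 2 lower. For transport genes, of 5 higher and 5 lower, 3 were higher with at least 10 counts in every library and for unfiltered log2(FPKM + 1), 1 in the filtered limma fits; 3 were lower with the block and 2 to 5 with 1 library left out. Same-numbered libraries did not deviate together (correlations −0.01, 0.00 and 0.03). With 3 libraries per group this cannot decide whether same-numbered libraries shared a culture or day, and the labels do not say. The filtered limma fits and the minimum of 10 counts leave fewer low genes to test.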

Other observations

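The noncoding transcripts given here lie at KCN loci and were picked after their values were seen; several others at such loci, such as KCNMA1-AS1 (adjusted p = 0.197, edgeR) and KCNQ5-AS1 (adjusted p = 0.121), did not pass the test. KCNQ1OT1, the long antisense transcript of the imprinted KCNQ1 locus, was at 339.9 ± 36.1 CPM in control and 234.2 ± 28.3 CPM in Sev libraries (SD, n = 3; log2 fold change −0.54, adjusted p = 0.00778, edgeR), while KCNQ1 itself had 4, 6 and 5 against 6, 7 and 7 counts and was not tested. KCNH1-IT1, which lies on the same strand within KCNH1, had 2 to 4 counts in control and 10 to 20 counts in Sev libraries (log2 fold change 2.54) and was tested only because of the Sev libraries, where KCNH1 had a log2 fold change of −0.09. KCND3-IT1, within KCND3, had a log2 fold change of −1.31 (adjusted p = 0.0718).

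The untested genes KCNJ15 and KCNA6 were at 0 in every control library and had a few counts in each Sev library. KCNJ15 had 11, 9 and 3 counts and KCNA6 had 6, 12 and 7 counts after Sev. They were under the filter, were picked after their values were seen, and carry no test.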
